A study of Mus musculus with 18 samples.

Results

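The genes described here encode the proteasome, its activators and its assembly chaperones. They are the protein-coding mouse genes whose symbol starts with Psma, Psmb, Psmc, Psmd, Psme or Psmg followed by a digit, without the inducible catalytic subunits Psmb8, Psmb9 and Psmb10. This rule found 46 of the 51912 gene identifiers measured, of which 21793 are protein-coding, and it used no measured value. The members fell into 8 genes of the 20S alpha ring, 8 of the 20S beta ring, 6 ATPases and 3 other subunits of the 19S base, 8 subunits of the 19S lid, 3 chaperones of the 19S particle, 4 chaperones of the 20S core and 5 activators. The remaining member, Psmc3ip, only shares the symbol: it is a DNA recombination factor of meiosis named for binding Psmc3.

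B cells of C57BL/6 mice were taken from wild-type animals (WT) and from littermates lacking Sh3gl1 in every cell (Sh3gl1-/-), the gene for the endocytic adaptor endophilin A2. RNA was sequenced from transitional cells and follicular cells ex vivo, both untreated, and from follicular cells cultured with CD40L, for 14 h by the labels, the T-cell ligand that activates B cells through CD40. Each of the 6 groups held 3 mice. All CD40L-treated cells were also cultured and all untreated cells were not, so that the effects of CD40L and of culture cannot be told apart, and the deletion was not restricted to B cells.

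The proteasome degrades proteins that carry ubiquitin. Its 20S core is a barrel of alpha rings, which gate the entrance, and beta rings, which hold the catalytic sites. The 19S particle caps the barrel: its lid removes ubiquitin, and the ring of ATPases in its base unfolds the substrate. In lymphoid cells inducible catalytic subunits replace part of the constitutive ones, and the activators PA28 and PA200 can take the place of the 19S cap, which changes the peptides that are made for antigen presentation.

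The 18 libraries held between 12404665 and 18366011 counts. The Sh3gl1 count was 377 to 929 in WT libraries and 1 to 22 in Sh3gl1-/- libraries. Transcripts of 6 B-cell genes were abundant in every library, and Cd93, a marker of immature B cells, stood at 9.9 to 15.6 TPM in transitional and 2.14 to 4.58 TPM in follicular cells ex vivo. Transcripts of other cell types were present and unequal. The summed level of 6 erythroid genes, globins among them, was 3275 to 20829 TPM ex vivo and 10.9 to 770 TPM after CD40L. The 6 genes of a neutrophil list summed to 143 to 341 TPM in WT and 349 to 1548 TPM in Sh3gl1-/- follicular cells ex vivo, and lists for T cells, NK cells, dendritic cells and platelets to at most 199.6 TPM in any library. In bulk RNA, fewer cells of a type and less RNA per cell cannot be told apart.

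Proteasome transcripts took 0.628% to 1.271% of the counts of a library. Psma8, a testis form of an alpha subunit, and Psmb11, the catalytic subunit of thymic epithelium, had at most 5 and 4 counts in any library and were not tested. The other 44 passed the filter on low counts in every comparison. In WT follicular cells ex vivo the summed level of all members was 7065, 7216 and 7177 TPM, a unit scaled to transcript length in which genes can be set side by side. The 20S core made up 3751 ± 14.0 TPM of it (SD, n = 3) and the 19S particle 2121 ± 98.2 TPM.

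Within a complex whose subunits are built in fixed proportions, the transcripts differed in level. The 7 alpha subunits detected ranged 2.89-fold, from 135 TPM for Psma2 to 391 TPM for Psma7. The 7 beta subunits ranged 4.44-fold, from 120 TPM for Psmb7, the trypsin-like catalytic subunit, to 532 TPM for Psmb3. The base ATPases lay closest together, from 98.8 TPM for Psmc6 to 185 TPM for Psmc4. Among the lid subunits Psmd3 stood apart at 9.6 ± 1.9 TPM (SD, n = 3), while the median lid subunit was at 107 TPM and Psmd11, the highest, at 245 TPM. Psmd3 also had the lowest level of the 17 subunits of the 19S particle in both groups of CD40L-treated cells, at 12.1 and 13.4 TPM. Assembly chaperones were lower than most subunits they act on: the 3 of the 19S particle ranged from 11.5 TPM for Psmd5 to 64.5 TPM for Psmd10, and the 4 of the 20S core from 14.9 TPM for Psmg1 to 56.0 TPM for Psmg4.

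**Figure D1:**
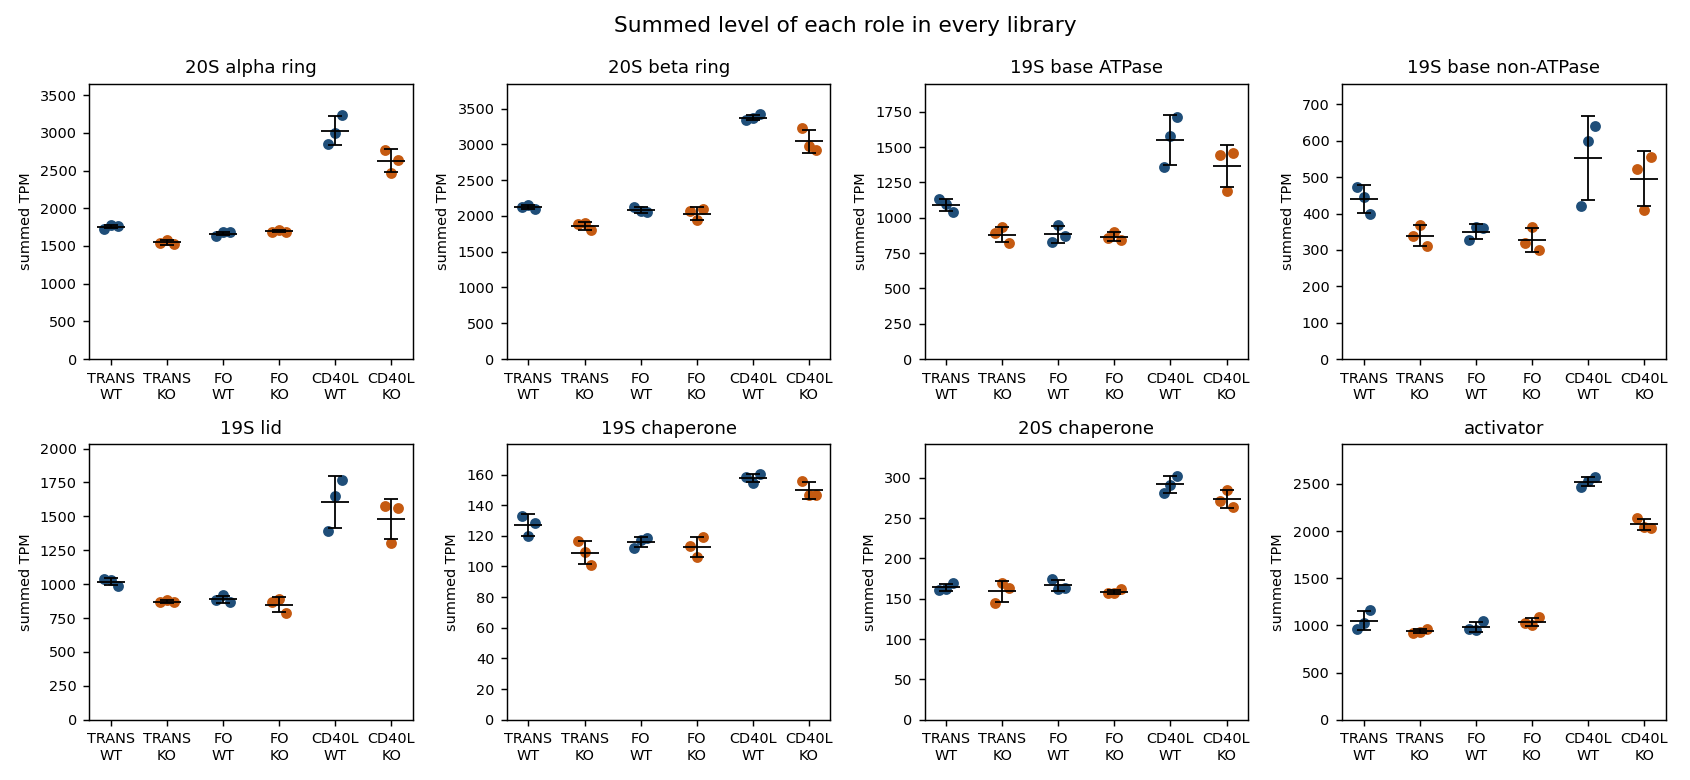
Summed TPM (vertical axes, from 0) of the genes of each proteasome role in every library, by group (horizontal axes: TRANS transitional, FO follicular ex vivo, CD40L follicular after CD40L; blue WT, orange Sh3gl1-/-, written KO). Points are mice, and bars are the mean and SD of 3. Every role was higher after CD40L than in the follicular cells of the same genotype, and of the 8 roles plotted the activators had the largest ratio in WT, from 987 to 2524 TPM.

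The first comparison set follicular cells cultured with CD40L against follicular cells ex vivo, so it holds the effects of both CD40L and culture. In WT cells 40 of the 44 members tested were higher after CD40L and 0 were lower. Over all 14460 genes tested, 23.6% rose and 25.7% fell, and among the 6511 genes with a mean of at least 20 CPM (counts scaled to library size) over the 18 libraries, 35.9% rose, against 38 of the 41 members at that level. The median member changed by 0.97 on the log2 scale, against -0.08 for all genes. The WT libraries did not overlap, with the CD40L-treated cells higher, for 41 members, and for 26.9% of all genes. The summed level of the members reached 12317, 13194 and 13848 TPM, 1.83 times that of the untreated cells. The erythroid genes summed to 3275 to 8932 TPM in the untreated and 10.9 to 770 TPM in the treated WT libraries, and their part in this comparison was not tested.

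The response ran through each part of the particle. All 7 alpha subunits tested rose, by 0.71 to 1.36, and all 7 beta subunits, by 0.56 to 1.07. All 6 base ATPases rose, by 0.84 to 1.20, all 3 other base subunits, by 0.43 to 1.41, and 7 of 8 lid subunits, where only Psmd3 at 0.49 (adjusted p = 0.057) did not pass. The changes did not follow the starting level: over the 44 members Spearman's rho between the log2 fold change and the TPM in untreated WT cells was 0.06, a description over genes that share the same 6 libraries. In all, 19 members at least doubled, 20 changed by between 0.5 and 1 on the log2 scale, and 5 by less.

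The constitutive catalytic subunits doubled. Psmb5, the chymotrypsin-like subunit, was at 101.8, 99.6 and 96.8 CPM in untreated WT cells and at 201.0, 197.8 and 209.5 CPM after CD40L, a 2-fold rise (SE 0.10 on the log2 scale; edgeR adjusted p = 2.4e-06). Psmb6, the caspase-like subunit, went from 256.3, 237.8 and 263.9 CPM to 514.6, 488.8 and 524.7 CPM. Psmb7 went from 110.8, 110.2 and 111.1 CPM to 237.0, 217.8 and 256.9 CPM. For all 3 genes every treated library was above every untreated one. Psmb7 shares exon bases with Nek6 on the other strand, whose median count was 110 against 1695, and whether the counting used strand is not given in the sources used here.

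Of the alpha ring, Psma7 had the lowest adjusted p (1.9e-07), going from 252.2, 251.7 and 270.9 CPM to 544.4, 569.8 and 620.1 CPM. Psma1 went from 265.1, 273.5 and 271.4 CPM to 529.7, 472.5 and 537.2 CPM, without overlap. Of the lid, Psmd7, the partner of the deubiquitinase subunit, went from 102.0, 91.9 and 85.3 CPM to 235.0, 255.8 and 302.0 CPM, a 2.79-fold rise (log2 fold change 1.48 ± 0.12 SE, edgeR adjusted p = 3.2e-07). The deubiquitinase itself, Psmd14, went from 149.5, 146.4 and 165.1 CPM to 285.5, 329.0 and 389.6 CPM. Of the ATPases, Psmc1 went from 179.5, 205.7 and 189.5 CPM to 329.3, 389.8 and 474.2 CPM. The treated libraries lay above the untreated ones for these genes too, with a wide spread for Psmd2: this scaffold subunit of the base stood at 317.0, 519.7 and 609.3 CPM after CD40L, with the first mouse far below the others.

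**Figure D2:**
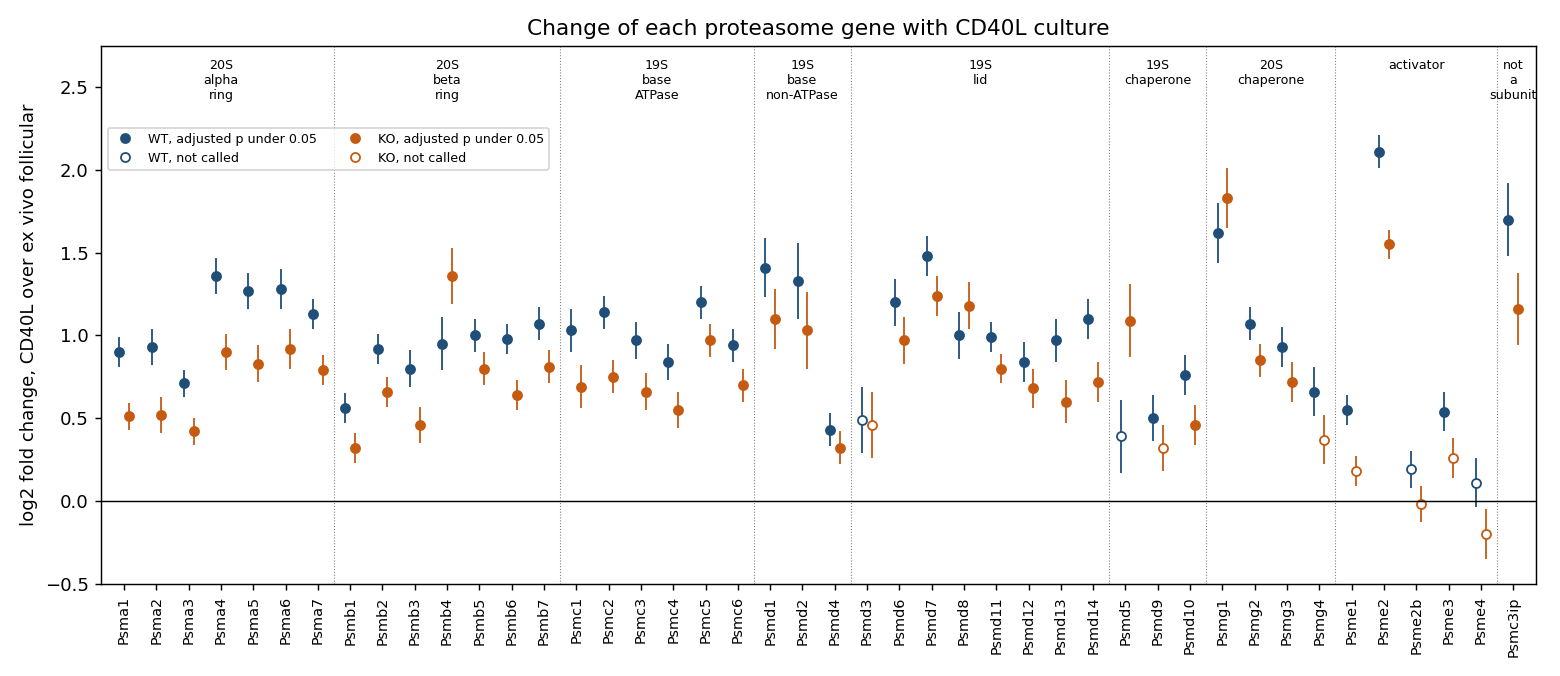
Log2 fold change (vertical axis; 0 is no change) of each of the 44 members tested between CD40L-treated and untreated follicular cells, in WT (blue) and Sh3gl1-/- cells (orange), ordered by role along the horizontal axis. Bars are standard errors from edgeR, and filled points passed an adjusted p of 0.05. Psme2 is the highest point in WT, at 2.11, and most orange points lie below their blue partners.

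Chaperones of the core rose as well. Psmg1, one of the chaperone pair that starts the assembly of the alpha ring, went from 12.6, 9.9 and 11.6 CPM to 34.5, 34.2 and 38.7 CPM, 3.08-fold (log2 fold change 1.62 ± 0.18 SE, edgeR adjusted p = 6.5e-06). Its partner Psmg2 rose by 1.07, and the second pair, Psmg3 and Psmg4, by 0.93 and 0.66. Of the chaperones of the 19S particle, Psmd10 and Psmd9 rose by 0.76 and 0.50, and Psmd5 changed by 0.39 (adjusted p = 0.16). Psmc3ip, the meiotic factor, rose 3.25-fold from a low level, 7.5 to 11.7 CPM before and 25.2 to 40.9 CPM after CD40L. It shares 21.2% of its exon bases with Mlx on the other strand, whose median count was 724 against 165. As the use of strand in counting is not given, its values are uncertain in all comparisons.

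The activators split. Psme2, a subunit of the ring PA28 that it forms with Psme1, had the largest change of all members: it was at 301.6, 300.1 and 323.9 CPM in untreated WT cells and at 1405.0, 1266.9 and 1402.1 CPM after CD40L, a 4.32-fold rise (log2 fold change 2.11 ± 0.10 SE, edgeR adjusted p = 1.7e-09). Psme1 went from 235.4, 235.2 and 267.6 CPM to 377.6, 380.2 and 344.5 CPM, 1.46-fold. Scaled to length, there were 1.89, 1.79 and 1.84 Psme2 transcripts for each Psme1 transcript in the untreated libraries and 4.98, 4.64 and 5.76 in the treated ones, so that the ratio within a library separated the groups. Psme3, which forms a nuclear ring of its own, rose 1.46-fold, from 41.7, 33.3 and 34.8 CPM to 59.4, 54.0 and 49.6 CPM. Psme4, the single-chain activator PA200, stood at 49.5, 56.3 and 53.0 CPM before and at 68.1, 49.6 and 56.7 CPM after CD40L, with overlapping groups (adjusted p = 0.59). Psme2b, an intronless copy of Psme2 in the mouse, changed by 0.19 (adjusted p = 0.17). Reads that fit both Psme2 and Psme2b were divided between them by the counting method, so the split of these 2 values is uncertain.

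The 3 inducible catalytic subunits did not rise. In WT cells Psmb8 fell by 0.40 (edgeR adjusted p = 0.013), Psmb9 fell by 0.41 (adjusted p = 0.0091), and Psmb10 changed by -0.10 (adjusted p = 0.40). Each inducible subunit takes the place of 1 constitutive subunit, and its share of the pair in TPM was lower after CD40L for all 3. Psmb8 made up 76.1%, 71.7% and 74.8% of Psmb8 and Psmb5 together in untreated WT libraries and 49.8%, 56.2% and 50.6% after CD40L. Psmb9 made up 26.0% ± 1.1 of its pair with Psmb6 before and 12.1% ± 0.7 after CD40L (SD, n = 3), and Psmb10 62.4% ± 0.7 and 42.4% ± 2.9 of its pair with Psmb7. No share overlapped between treated and untreated libraries. These are shares of transcripts, and the subunits in the particle were not measured.

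**Figure D3:**
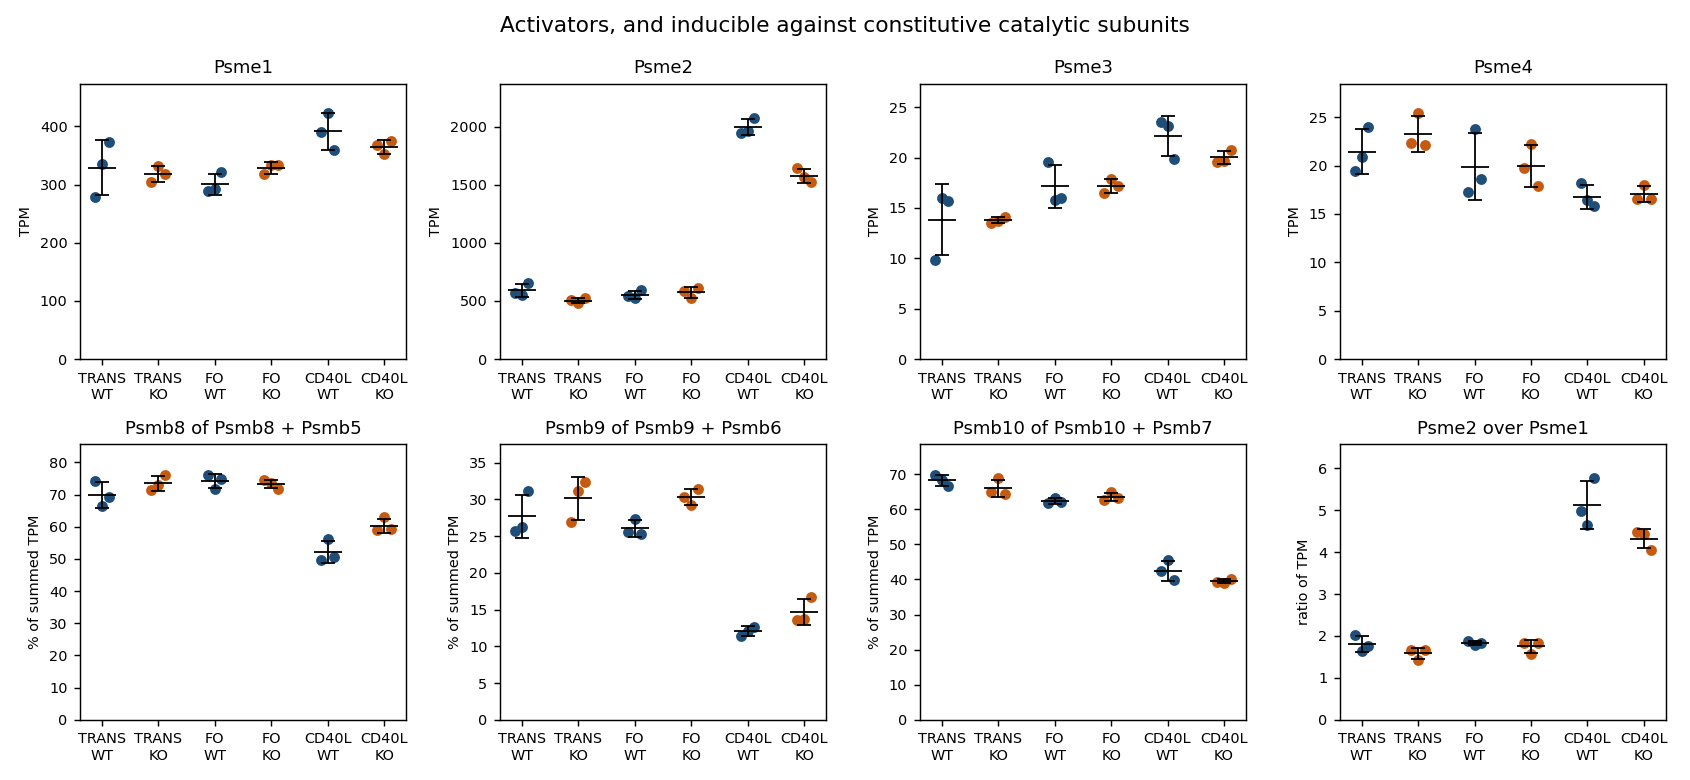
Upper row: TPM of the activators Psme1, Psme2, Psme3 and Psme4 in every library; lower row: share of the inducible subunit in the summed TPM of each inducible and constitutive pair, in percent, and the ratio of Psme2 to Psme1. Groups and colours as TRANS, FO and CD40L, WT in blue and Sh3gl1-/- (KO) in orange; points are mice, bars the mean and SD of 3. After CD40L the Psme2 to Psme1 ratio is above 4 in all 6 libraries and the Psmb9 share below 17%.

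To set sequence beside these values, promoter windows were read from RefSeq (GRCm38.p6), 250 bases before to 50 after an annotated start. Of the 46 members 38 had such a window, 41 windows in all. Those without were Psma8, Psmb1, Psmb2, Psmb7, Psmc3, Psmd3, Psmd7 and Psmg2. The windows of 5 members are shown: a catalytic subunit that doubled with CD40L (Psmb5, chr14:54617946-54618245, minus strand), the base subunit that differed between the stages and, in transitional cells, between the genotypes (Psmd2, chr16:20651402-20651701, plus strand), the chaperone with a rise of over 3-fold (Psmg1, chr16:95990911-95991210, minus strand), and both subunits of PA28, which responded unequally (Psme1, chr14:55578244-55578543, plus strand, and Psme2, chr14:55591052-55591351, minus strand). Capitals mark the 6 motifs searched on both strands: TGACNNNGC, the core of the antioxidant response element to which Nfe2l1 and Nfe2l2 bind, CCAAT, the ETS motif CCGGAAG, the GC box GGGCGG, the YY1 motif AAGATGG and the E-box CACGTG.
Psmb5: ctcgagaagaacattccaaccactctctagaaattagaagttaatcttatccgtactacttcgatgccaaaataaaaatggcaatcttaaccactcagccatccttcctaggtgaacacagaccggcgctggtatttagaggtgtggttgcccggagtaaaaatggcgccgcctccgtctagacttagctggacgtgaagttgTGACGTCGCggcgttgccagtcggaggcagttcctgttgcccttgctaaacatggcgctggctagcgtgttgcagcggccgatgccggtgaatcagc
Psmd2: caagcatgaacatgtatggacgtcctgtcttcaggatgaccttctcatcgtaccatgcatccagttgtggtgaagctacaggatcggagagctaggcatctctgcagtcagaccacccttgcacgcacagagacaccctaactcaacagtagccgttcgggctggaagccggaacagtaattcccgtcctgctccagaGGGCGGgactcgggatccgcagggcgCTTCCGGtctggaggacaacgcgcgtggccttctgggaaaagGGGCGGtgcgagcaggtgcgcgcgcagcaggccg
Psmg1: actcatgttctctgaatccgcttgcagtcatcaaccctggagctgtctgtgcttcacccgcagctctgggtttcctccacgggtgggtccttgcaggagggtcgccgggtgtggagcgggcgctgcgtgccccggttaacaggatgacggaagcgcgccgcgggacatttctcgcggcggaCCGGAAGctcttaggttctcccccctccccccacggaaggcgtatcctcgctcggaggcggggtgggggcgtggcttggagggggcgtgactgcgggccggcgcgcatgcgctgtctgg
Psme1: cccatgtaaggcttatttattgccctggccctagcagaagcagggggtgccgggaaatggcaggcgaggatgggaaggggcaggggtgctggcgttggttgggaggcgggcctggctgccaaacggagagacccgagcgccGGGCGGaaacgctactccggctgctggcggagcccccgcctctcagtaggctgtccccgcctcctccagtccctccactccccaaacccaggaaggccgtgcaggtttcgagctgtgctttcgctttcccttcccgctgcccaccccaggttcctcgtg
Psme2: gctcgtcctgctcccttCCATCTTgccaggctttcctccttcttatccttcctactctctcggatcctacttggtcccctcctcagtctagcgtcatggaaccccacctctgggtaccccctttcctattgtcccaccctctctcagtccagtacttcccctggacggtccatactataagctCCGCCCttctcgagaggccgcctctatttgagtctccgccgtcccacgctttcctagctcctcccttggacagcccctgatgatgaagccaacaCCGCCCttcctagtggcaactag

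Psmb5 held TGACNNNGC 47 bases before the start and no other motif of the 6. Psmg1 held CCGGAAG 69 bases before the start. Psmd2 held CCGGAAG 26 bases before the start on the strand opposite to the gene, where it reads as CTTCCGG, and 2 GC boxes, and Psme1 held 1 GC box. The window of Psme2 shown held GC boxes 67 bases before and 28 after the start and AAGATGG 233 bases before it, all on the strand opposite to the gene, where they read as CCGCCC and CCATCTT. Over all members with a window, CCGGAAG stood in 39% of the 41 windows (15 genes), in 8.86% of all 32851 windows and in 22.1% of the 6452 windows of genes with at least 20 CPM. AAGATGG stood in 19.5%, 6.34% and 8.73% of them, TGACNNNGC in 14.6%, 12.4% and 14.7%, GGGCGG in 56.1%, 35.7% and 62.9%, CCAAT in 34.1%, 37.4% and 38%, and CACGTG in 7.32%, 7.15% and 11%. The 6 genes with TGACNNNGC were Psmb5, Psmb6, Psmc6, Psmd9, Psmd12 and Psme4, among them Psmb5, which doubled with CD40L in WT cells, and Psme4, which did not pass in either genotype. These matches describe the letters of the windows, and binding was not measured.

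In Sh3gl1-/- follicular cells 37 of the 44 members were higher after CD40L and 0 lower, where 20.6% of all genes rose and 21.8% fell. The median member changed by 0.71, against -0.03 for all genes, and 42 members were higher without overlap, as were 26.2% of all genes. The 37 comprised all 7 alpha, all 7 beta and all 6 ATPase genes, all 3 other base subunits, 7 of 8 lid subunits, 2 of 3 chaperones of the 19S particle, 3 of 4 chaperones of the core, 1 of 5 activators and Psmc3ip. Those that did not pass were Psmd3, Psmd9, Psmg4, Psme1, Psme2b, Psme3 and Psme4.

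Psme2 had the lowest adjusted p, going from 351.2, 313.4 and 376.0 CPM to 1104.7, 1034.5 and 946.3 CPM, a 2.93-fold rise (log2 fold change 1.55 ± 0.09 SE, edgeR adjusted p = 2.8e-08). Psme1 went from 271.9, 274.4 and 297.7 CPM to 334.3, 311.9 and 319.5 CPM, a change of 0.18 ± 0.09 (adjusted p = 0.13). The Psme2 to Psme1 ratio in TPM rose from 1.84, 1.57 and 1.84 to 4.48, 4.44 and 4.06. Psme3 went from 36.6, 38.4 and 40.4 CPM to 47.0, 46.2 and 46.4 CPM, a change of 0.26 (adjusted p = 0.09) without overlap. Psme4 went from 49.6, 62.9 and 51.8 CPM to 49.9, 55.5 and 39.0 CPM, a change of -0.20 (adjusted p = 0.31), and its groups overlapped.

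Among the other members, Psmg1 had the largest change in Sh3gl1-/- cells: 9.2, 9.8 and 15.1 CPM before and 39.2, 44.5 and 39.4 CPM after CD40L, 3.56-fold. Psmb5 went from 94.2, 87.0 and 104.4 CPM to 183.6, 155.6 and 162.8 CPM, Psmb6 from 257.1, 243.0 and 273.3 CPM to 444.6, 398.0 and 377.1 CPM, and Psmb7 from 113.7, 107.2 and 118.2 CPM to 216.0, 194.1 and 193.0 CPM. Psma1 went from 297.1, 279.0 and 292.4 CPM to 444.7, 402.9 and 401.6 CPM. The groups did not overlap for any of these. Psmd7 went from 97.8, 97.2 and 86.9 CPM to 245.2, 202.7 and 226.9 CPM, 2.36-fold. Psmd14 went from 157.2, 151.5 and 154.5 CPM to 283.7, 224.8 and 264.7 CPM, and Psmc1 from 209.6, 206.2 and 196.3 CPM to 361.2, 293.1 and 348.0 CPM. Of the inducible subunits, Psmb9 fell by 0.69 (adjusted p = 0.00031) and Psmb10 fell by 0.66 (adjusted p = 6.3e-05), while Psmb8 changed by -0.08 (adjusted p = 0.62). Psmb8 kept 60.4% ± 2.2 of its pair with Psmb5 after CD40L (SD, n = 3), against 52.2% ± 3.5 in WT cells. Of the 3 inducible subunits 0 passed the edgeR test of a different change between the genotypes, and the shares were not tested.

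Whether the response differed between the genotypes was tested as the difference of the 2 changes. By edgeR 0 of the 44 members passed, and 0% of all 14460 genes did. At an unadjusted p under 0.05 there were 13 members, 12 with a smaller response in Sh3gl1-/- cells, and 8.8% of all genes. DESeq2 called Psma1 and Psme2, and 2.26% of the 1282 genes to which it gave an adjusted p, a set without 14 of the members. The estimate was below 0 for 40 of 44 members, with a median of -0.29 against 0.01 for all genes. For Psme2 the difference was -0.56 ± 0.13 (SE, adjusted p = 0.47) and for Psma1 -0.39 ± 0.12 (adjusted p = 0.47) by edgeR. At the other end, Psmd5 had a difference of 0.71 (adjusted p = 0.54): it was at 23.1, 30.6 and 19.8 CPM in WT and at 42.4, 37.2 and 26.0 CPM in Sh3gl1-/- cells after CD40L, with overlapping groups. Scaling to library totals alone moved the median of all genes in this comparison from 0.01 to 0.11 and that of the members to -0.18.

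Compared directly, Sh3gl1-/- and WT follicular cells ex vivo differed in 0 members, and 0.845% of the 13610 genes tested were called. At an unadjusted p under 0.05 there was 1 member, Psme1, and 10.9% of all genes. DESeq2 called 0 members and 2.59% of all genes. Farthest below and above the median of 0.05 were Psmb4, a structural beta subunit, with 70.8, 57.5 and 72.4 CPM in Sh3gl1-/- against 98.7, 70.5 and 73.4 CPM in WT cells (-0.28, adjusted p = 0.54), and Psme1 at 0.19 (adjusted p = 0.42). The summed level of the members was 7097, 7086 and 7093 TPM in Sh3gl1-/- cells, inside the WT range of 7065 to 7216 TPM.

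After CD40L, edgeR and DESeq2 each called 0 members between the genotypes, and edgeR called 0.0227% of the 13188 genes tested, 3 genes in all, and DESeq2 0.624%. At an unadjusted p under 0.05 there were 9 members, 8 of them lower in Sh3gl1-/- cells, and 7.1% of all genes. Of the 44 members 27 were lower in every Sh3gl1-/- library than in any WT library, where 7.62% of all genes were. These 27 shared the same 6 libraries and are not independent of each other. The median difference was -0.23, against 0.01 for all genes. Psme2 had the lowest p, with a difference of -0.37 ± 0.11 (SE, adjusted p = 0.54). With all 18 libraries in the fit its difference was -0.40 (adjusted p = 0.037), in a fit that called 0.542% of all genes. Psmc3ip lay lowest at -0.46 (adjusted p = 0.70) and Psmd5 highest at 0.55 (adjusted p = 0.69). The summed level of the members was 12131, 10858 and 11615 TPM in Sh3gl1-/- cells, below the 12317 TPM of the lowest WT library. The neutrophil list summed to 16.2 to 76.6 TPM in these WT and 96.4 to 340 TPM in these Sh3gl1-/- libraries, and its part in the difference was not tested.

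In transitional cells the deletion went with a lower level of 1 member. Psmd2, the base subunit that receives substrates from shuttle factors, was at 322.3, 294.3 and 265.7 CPM in WT and at 201.4, 212.7 and 194.5 CPM in Sh3gl1-/- cells (log2 fold change -0.54 ± 0.09 SE, edgeR adjusted p = 0.025), without overlap. Over all 13774 genes tested, 2.48% were lower. The call rests on few mice: without WT mouse 2, Sh3gl1-/- mouse 1 or Sh3gl1-/- mouse 3 the adjusted p was 0.082, 0.11 and 0.12, with all 18 libraries in the fit 0.20, and with the replicate number as a block 0.059. DESeq2 called 10 members, all lower, where it called 6.77% of all genes lower: Psmd2 and, beside it, Psmb6, Psmc1, Psmc4, Psmc5, Psmd1, Psmd10, Psmd12, Psmd13 and Psmd14. All but Psmb6 belong to the 19S particle or its chaperones.

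Of the 44 members, 19 were lower in every Sh3gl1-/- than in any WT transitional library, as were 14.4% of all genes. Psmd14 stood at 178.7, 196.2 and 174.6 CPM in WT and at 146.7, 153.5 and 141.9 CPM in Sh3gl1-/- cells (adjusted p = 0.072). Psmc1 stood at 278.3, 263.2 and 235.7 CPM against 211.9, 219.3 and 197.9 CPM (adjusted p = 0.097). The summed 19S particle was 2638, 2574 and 2428 TPM in WT and 2095, 2183 and 1998 TPM in Sh3gl1-/- cells. Psmb4 lay at the other end with a difference of 0.37 (adjusted p = 0.12). In transitional cells 5 plasma-cell marker genes summed to 418 to 643 TPM in WT and 1008 to 3924 TPM in Sh3gl1-/- libraries. Jchain alone held 379 to 610 TPM and 974 to 3878 TPM of these sums. Sdc1, Prdm1, Xbp1 and Irf4 overlapped between the genotypes. The 264 immunoglobulin genes took 9.60% to 10.3% and 10.1% to 14.8% of all TPM. Marginal zone markers, 3 genes, summed to 278 to 328 TPM and 155 to 194 TPM. Of these Cd1d1 held 215 to 269 TPM and 117 to 156 TPM, and Dtx1 overlapped between the genotypes. Erythroid transcripts were at 5398 to 9437 TPM in WT and 10354 to 20829 TPM in Sh3gl1-/- libraries. The part of these cells in the lower 19S level was not tested.

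The 2 stages were then set against each other. WT transitional and follicular cells differed in 9 members: 7 were higher in transitional cells, where 14.2% of 14580 genes were, and 2 lower, where 11.7% were. The 7 were all subunits of the 19S particle: the ATPases Psmc1, Psmc4 and Psmc5, the base subunits Psmd1 and Psmd2 and the lid subunits Psmd13 and Psmd14. Psmd13 shares 10.1% of its exon bases with Sirt3 on the other strand, whose median count was 483 against 1842. Psmd2 was 1.56-fold higher (log2 fold change 0.64 ± 0.11 SE, edgeR adjusted p = 0.00083), with 163.4, 191.4 and 208.9 CPM in follicular cells. Psmc4 was at 265.5, 255.7 and 259.5 CPM in transitional and 195.2, 198.9 and 191.8 CPM in follicular cells (adjusted p = 0.001), and Psmc1 at 179.5 to 205.7 CPM in follicular cells, below its transitional range. None of the 7 overlapped between the stages, in the same libraries that gave the calls. This was not particular to them: of the 44 members tested 13 were higher and 6 lower in transitional cells without overlap. The share of all genes without overlap is not given here.

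The 2 that were lower in transitional cells were Psmg1, at 8.6, 6.0 and 4.9 CPM against 12.6, 9.9 and 11.6 CPM (adjusted p = 0.034), and Psmb4, at 61.0, 54.6 and 66.7 CPM against 98.7, 70.5 and 73.4 CPM (adjusted p = 0.046). The alpha and beta subunits otherwise stayed within 0.21 of no change on the log2 scale, and 0 of the activators passed. The ratio of summed 19S to summed 20S transcripts was higher in transitional cells, at 0.685, 0.656 and 0.629, than in follicular cells, at 0.541, 0.595 and 0.560. The number of members called fell from 9 to 4 without WT follicular mouse 1 or without WT transitional mouse 2: Psmb4, Psmc5, Psmd1, Psmd14 and Psmg1 were lost and Psmc1, Psmc4, Psmd2 and Psmd13 remained. Leaving out any single library of the fit, of either genotype, lost at least 1 call, but never one of these last. Psmc5 stayed called only without WT follicular mouse 2 or WT transitional mouse 3. Psmd1 and Psmg1 were also lost without WT follicular mouse 3. With the 6 WT libraries alone there were 5, where 23% of all genes were called. Transitional WT libraries held 489 to 573 TPM of a list of 6 macrophage and monocyte genes and follicular WT libraries 109 to 139 TPM. The plasma-cell markers summed to 418 to 643 TPM and 73.8 to 135 TPM. Jchain alone held 379 to 610 TPM and 40.0 to 92.8 TPM of these sums, and Sdc1, Prdm1, Xbp1 and Irf4 overlapped. The marginal zone markers summed to 278 to 328 TPM and 151 to 203 TPM. Of these Cd1d1 held 215 to 269 TPM and 91.7 to 146 TPM, and Dtx1 overlapped. Immunoglobulin genes took 9.60% to 10.3% and 6.78% to 7.23% of all TPM. The part of such cells in the difference was not tested.

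**Figure D4:**
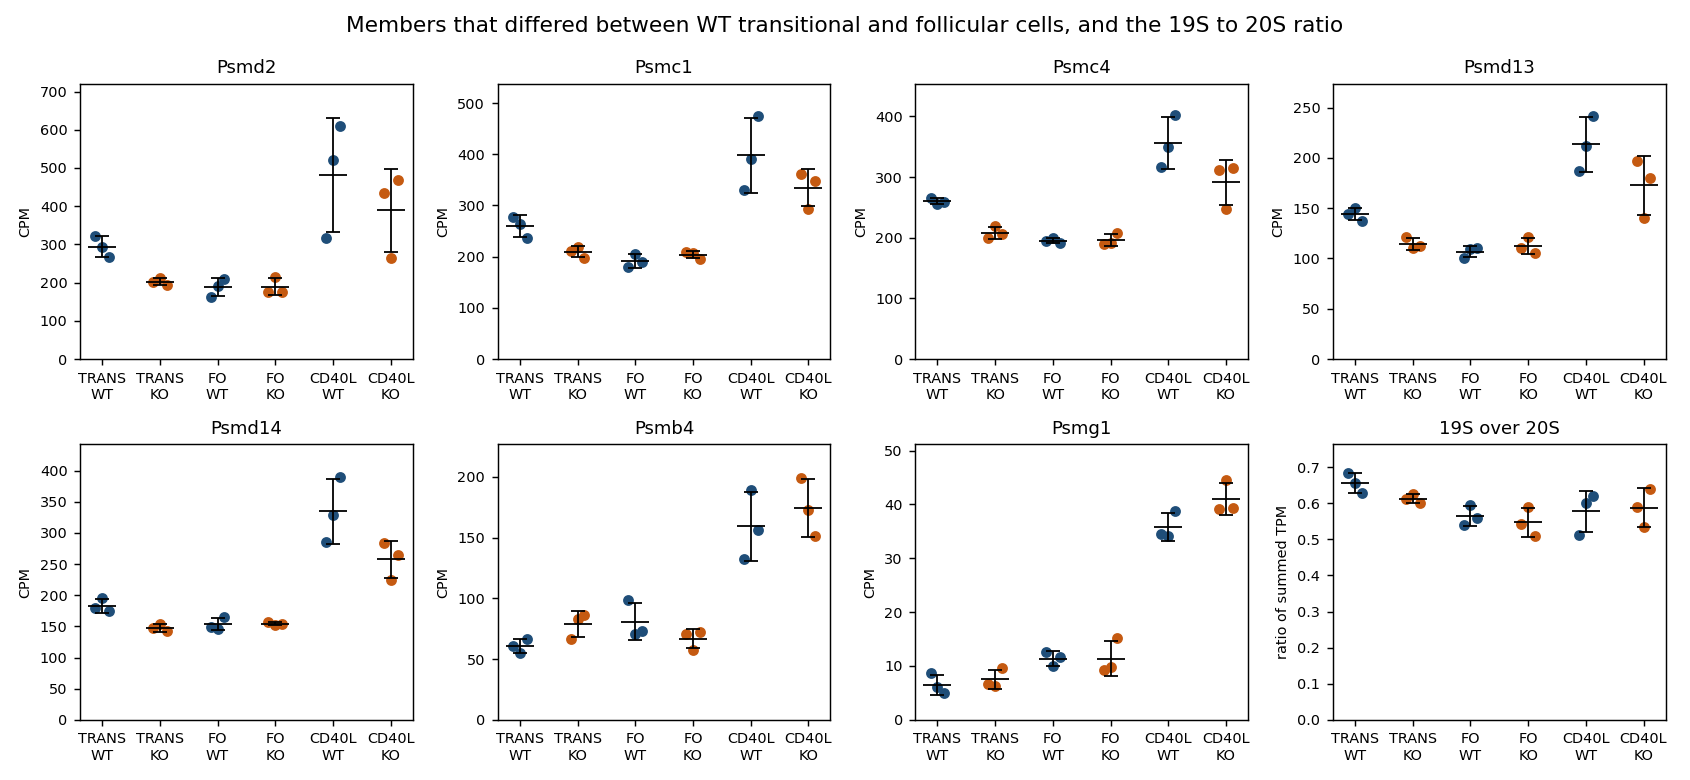
CPM of 7 members called between WT transitional and follicular cells, and the ratio of summed 19S to summed 20S TPM, in every library of the 6 groups (TRANS transitional, FO follicular ex vivo, CD40L follicular after CD40L; blue WT, orange Sh3gl1-/-, written KO). Points are mice, bars the mean and SD of 3, and axes start at 0. In the upper row WT transitional cells stand above WT follicular and above Sh3gl1-/- transitional cells.

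In Sh3gl1-/- mice 2 members differed between the stages, 1 in each direction, where 6.71% of all genes were higher and 3.7% lower in transitional cells. Psmd8, a lid subunit, was at 116.3, 132.9 and 131.0 CPM in transitional and 104.6, 103.3 and 91.1 CPM in follicular cells (log2 fold change 0.36, edgeR adjusted p = 0.039). Psma3, an alpha subunit, was at 249.4, 242.3 and 268.7 CPM and 304.7, 301.6 and 321.4 CPM (log2 fold change -0.28, adjusted p = 0.019). Neither overlapped. Psmg1 lay lowest at -0.59 (adjusted p = 0.17), with 6.6, 6.3 and 9.6 CPM against 9.2, 9.8 and 15.1 CPM and overlapping groups. With the mice of each genotype as blocks 4 members were called, Psmb3 and Psme2b being added as lower, where 13.4% of all genes were called. Without follicular Sh3gl1-/- mouse 3 or transitional Sh3gl1-/- mouse 2 there were 0, and without follicular Sh3gl1-/- mouse 1 there was 1 that had not been called before, Psme2b. Without WT follicular mouse 2 or transitional Sh3gl1-/- mouse 3 only Psma3 was left, and without transitional Sh3gl1-/- mouse 1 only Psmd8. Without follicular Sh3gl1-/- mouse 2 Psmd8 was lost (edgeR adjusted p = 0.068) and Psmb3 was called in its place. Leaving out any Sh3gl1-/- library thus lost at least 1 of the 2 calls. Psmd2 stood at 201.4, 212.7 and 194.5 CPM in transitional and 175.8, 214.2 and 176.0 CPM in follicular cells, with overlap and a difference of 0.12 (adjusted p = 0.58). The 19S to 20S ratio was 0.611, 0.627 and 0.601 in transitional and 0.543, 0.590 and 0.509 in follicular cells, which did not overlap. In these mice the plasma-cell markers summed to 1008 to 3924 TPM in transitional and 133 to 155 TPM in follicular cells. Jchain alone held 974 to 3878 TPM and 99.2 to 121 TPM of these sums, and Sdc1, Prdm1, Xbp1 and Irf4 overlapped. The macrophage and monocyte genes summed to 443 to 787 TPM and 116 to 257 TPM, and immunoglobulin genes took 10.1% to 14.8% and 6.12% to 6.38% of all TPM. Their part was not tested.

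Whether the stages differed in their genotype effect was tested directly. By edgeR 0 members passed, with 0.0686% of all 14580 genes, 10 genes, called. At an unadjusted p under 0.05 there were 14 members, 13 of them with a lower estimate in transitional cells, against 13.7% of all genes. The lowest adjusted p was that of Psmd2, 0.17, for a difference of -0.52 ± 0.15 (SE). DESeq2 called Psmc1, Psmc4, Psmd2 and Psmd13, all 19S subunits and all lower, with adjusted p between 0.025 and 0.038, and 3.34% of all genes. Farthest below and above the median of -0.15 were Psmc3ip at -0.57 (adjusted p = 0.46) and Psmb4 at 0.66 (adjusted p = 0.19). With every gene of at least 1 count in the fit, edgeR called Psmd2 and, in the other direction, Psmb4, and 1.73% of all genes.

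Other genes of the pathway were taken as lists. Of 34 genes, 32 were tested. After CD40L 17 of them were higher and 5 lower in WT cells, and 15 were higher and 6 lower in Sh3gl1-/- cells. Over all genes 23.6% and 20.6% rose and 25.7% and 21.8% fell. All 5 subunits and chaperones with other names rose in both genotypes, among them Pomp, which guides the maturation of the beta ring, from 181.9, 187.4 and 199.9 CPM to 441.1, 365.2 and 470.4 CPM in WT (log2 fold change 1.14, edgeR adjusted p = 2e-06). Both deubiquitinases that visit the particle, Uchl5 and Usp14, rose in both genotypes. The transcription factors of proteasome genes went apart. Nfe2l1, which drives the recovery of proteasome genes when the particle is inhibited, rose by 0.95 in WT (adjusted p = 0.00064) and by 0.90 in Sh3gl1-/- cells (adjusted p = 0.0013), from 20.2 ± 3.7 CPM in untreated WT cells (SD, n = 3). Nfe2l2, the factor of the oxidative stress response, fell by 0.49 in WT (adjusted p = 0.0018) and fell by 0.94 in Sh3gl1-/- cells (adjusted p = 1e-05). The others that fell in both were Ddi2, the protease that releases Nfe2l1, Mafk, the E1 enzyme Uba6 and Zfand5, and the ubiquitin gene Ubb fell by 0.18 in Sh3gl1-/- cells (adjusted p = 0.043). Nfe2l3 had 0 to 21 counts a library and was not tested.

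Nfe2l2 was also the gene of these lists that differed between the genotypes in follicular cells ex vivo: it stood at 92.0, 98.0 and 98.0 CPM in WT and at 147.4, 146.2 and 132.6 CPM in Sh3gl1-/- cells (log2 fold change 0.56, edgeR adjusted p = 0.015). In transitional cells it stood at 115.0, 112.2 and 113.2 CPM and at 143.0, 151.0 and 141.1 CPM (log2 fold change 0.36, adjusted p = 0.044). In both stages the Sh3gl1-/- libraries lay above all WT libraries. After CD40L the difference was 0.13 (adjusted p = 0.82). The neutrophil list summed to 143 to 341 TPM in WT and 349 to 1548 TPM in Sh3gl1-/- follicular cells ex vivo. In transitional cells it summed to 104 to 181 TPM and 236 to 1091 TPM, and after CD40L to 16.2 to 76.6 TPM and 96.4 to 340 TPM. Its part in the Nfe2l2 difference was not tested. Of the 3 inducible subunits, Psmb10 was higher in WT transitional than in WT follicular cells by 0.38 (adjusted p = 0.0022), and 0 of the 3 differed between genotypes in any cell state.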

How the data were processed

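RNA of 18 samples, 6 groups of 3 mice, was sequenced as poly(A) libraries. The labels name a stranded KAPA kit, and cutadapt 1.9.1, STAR 2.5.2a, RSEM 1.3.0 and GRCm38 in the submitters' processing notes, whereas the methods name SMART-Seq HT with Nextera XT, TopHat and Cufflinks; the use of strand in counting is not given in the sources used here. The labels give 14 h of CD40L, the methods an overnight culture and the figure legends a longer time, so the length of the culture is uncertain. The deposited expected counts are RSEM estimates that divide shared reads among genes, and the authors did not normalize them. The deposited TPM and FPKM values, also from the authors, take transcript length and depth into account. Groups came from the labels, and 0 of the 54 columns were left out.

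Expected counts were rounded, since 28.5% to 31.0% of values above 0 were not whole. Tests used edgeR 4.0.16 in R 4.3.3: TMM scaling, filterByExpr by group, the quasi-likelihood F-test and Benjamini-Hochberg adjustment over all genes tested, with calls at an adjusted p under 0.05. Genotypes were compared within each cell state on 6 libraries. The CD40L responses and their difference were fitted on the 12 follicular libraries, and the stages and their difference on the 12 libraries ex vivo. CPM values are TMM-scaled over the 18 libraries. A standard error is the log2 fold change divided by the square root of F. Exact permutation tests of 3 against 3 mice cannot go below p = 0.1 and are not given. Symbols and positions came from GENCODE M21. The script was tested on simulated counts.

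Same-numbered libraries deviated together over 15117 genes in WT follicular cells before and after CD40L (r = 0.144, 0.136 and 0.224), in WT transitional and follicular cells (0.103, 0.145 and 0.242) and in those of Sh3gl1-/- mice (0.195, 0.263 and 0.115), so the numbers were taken to pair these. In Sh3gl1-/- cells before and after CD40L each library also correlated best with its own number (0.119, 0.079 and 0.030), and whether the numbers pair these is uncertain. The numbers did not pair the genotypes. The main tests did not use this pairing: they had no block and treated all libraries as independent. Blocks were run only as alternatives. With the block within genotype, the members called between the stages went from 9 to 10 in WT and from 2 to 4 in Sh3gl1-/- mice. Those called for CD40L went from 40 to 41 in WT and stayed at 37 in Sh3gl1-/- cells. All 18 pairs of replicates differed beyond sampling noise.

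The members with values in every library were 11 genes named by role; beside them stand, for each comparison, the 3 called members of lowest adjusted p in each direction and the members farthest from the median. The members, gene lists, motifs and rules were all chosen with earlier results of these data known. Other members named singly were chosen after their values were seen. Alternatives were other scalings, filters, DESeq2 1.42.0, other sets of libraries, replicate blocks, and each library left out.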

Additional observations from a re-analysis of the deposited data

How the results depend on the processing

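Of 162 alternatives to the counts and levels given for each comparison 137 kept them within 1.5 times, or within 1 SD for levels, and 25 did not. No direction of a called member was reversed. The CD40L counts were stable: leaving out 1 library at a time gave 40 to 42 members in WT and 36 to 38 in Sh3gl1-/- cells, and other settings 40 to 41 and 37 to 38. Leaving out 1 library gave 0 to 1 members for the genotypes in transitional cells, 4 to 9 for the stages in WT, 0 to 2 for the stages in Sh3gl1-/- mice, and 0 for the 4 comparisons without a call. For the genotypes in transitional cells the count of 1 became 10 with DESeq2, 4 with all genes of at least 1 count, 0 with all 18 libraries and 0 with the replicate number as a block. For the stages in Sh3gl1-/- mice the count of 2 became 4 with DESeq2, 1 with all genes of at least 1 count and 4 with a replicate block within genotype; in WT the count of 9 became 5 with 6 libraries. For the difference in CD40L response DESeq2 called 2, for the genotypes after CD40L the fit of 18 libraries called 1, and for the difference in genotype effect DESeq2 called 4 and the fit of all genes 2. The blocks moved no other count of calls by over 1.5 times. Library totals alone moved the median of all genes after CD40L in WT from -0.08 to -0.22 and that of the members from 0.97 to 0.83. In FPKM the summed level relative to WT follicular cells was 1.03 in place of 1.09 in WT transitional and 1.02 in place of 0.99 in Sh3gl1-/- follicular cells. The causes were not tested. Replicate numbers were not shared between genotypes by the correlation check, and in Sh3gl1-/- cells before and after CD40L, where each library correlated best with its own number, the block within genotype left the count at 37. At this depth Psma8 and Psmb11 could not be tested.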

Other observations

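Some members, chosen here after their values were seen, had estimates opposite in sign to the rest of the particle. Psmb4, Psmd5 and Psmd8 had a larger estimated CD40L response in Sh3gl1-/- than in WT cells, by 0.41, 0.71 and 0.18 on the log2 scale, as did Psmg1, by 0.21, and these were the 4 of 44 members with an estimate above 0. None passed the test of the difference (edgeR adjusted p = 0.62, 0.54, 0.83 and 0.86). The first WT follicular mouse had the highest level of the 6 untreated follicular libraries for 3 of them: Psmb4 stood at 98.7 CPM there and at 57.5 to 73.4 CPM in the other libraries, Psmd5 at 23.7 CPM and 15.1 to 17.8 CPM, and Psmd8 at 127.1 CPM and 91.1 to 113.5 CPM. Adrm1, the ubiquitin receptor of the base, stood at 93.5 CPM in that library and at 39.3 to 52.4 CPM in the other 5. The cause was not tested.

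After CD40L the summed 19S transcripts were 3709 ± 482 TPM in WT and 3340 ± 374 TPM in Sh3gl1-/- cells, and the summed 20S transcripts 6406 ± 231 and 5676 ± 292 TPM (SD, n = 3). The ratio of summed 19S to summed 20S TPM was 0.513, 0.602 and 0.619 in WT and 0.589, 0.533 and 0.641 in Sh3gl1-/- cells. Psmd2 was lowest in WT mouse 1 (317.0 CPM) and in Sh3gl1-/- mouse 2 (265.0 CPM), the same libraries in which Vcp, the unfolding ATPase that hands substrates to the proteasome, was lowest in its group, at 417.7 and 478.1 CPM. Psma7 in these libraries was at 544.4 and 452.1 CPM, against 569.8 and 620.1 CPM in the other WT and 513.3 and 462.8 CPM in the other Sh3gl1-/- mice.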
